A study of Mus musculus with 18 samples.

Results

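The 10 genes described here encode the integrin subunits of leukocytes, and they were taken by symbol from a deposited count matrix of 29875 mouse genes: Itgal, Itgam, Itgax, Itgb2, Itgb1, Itga4, Itga5, Itgb7, Itgav, and Itgb3. All 10 were in the matrix and passed the filter on low counts, as did 13844 genes in all. RNA was sequenced from dendritic cells (DCs) grown with GM-CSF hybridoma supernatant from bone marrow of wild-type C57Bl6/J mice 8 to 12 weeks old, matured on differentiation day 8 with lipopolysaccharide (200 ng/ml) for 24 hours, and loaded into migration chambers. In 4 groups the DCs moved toward a source of the chemokine CCL19 in gels of bovine collagen at 1.7, 2.6, 3.5, or 4.4 mg/ml, and in 2 groups they lay in the chambers without collagen (suspension). RNA was extracted once the gradient had stood for 5 hours. Each of the 6 groups has 3 libraries, 18 in all, and a replicate number stands for 1 date and sequencing lane in the library names. The suspension groups are called by their titles, plus CCL19 and without CCL19, but titles and library names contradict each other on CCL19, so these groups are compared without reading a direction for CCL19. Whether the libraries of a group came from separate mice is not stated. Levels are averages over all cells of a chamber, DCs and any other cells of the cultures alike.

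Integrins are heterodimers of an alpha and a beta chain that join the outside of a cell to its actin skeleton. The alpha chains Itgal, Itgam, and Itgax pair with Itgb2, the leukocyte-specific beta2 chain, to form LFA-1, Mac-1, and CD11c/CD18, which bind ICAMs, complement fragments, and fibrinogen. Itgb1 pairs with many alpha chains, among them Itga5, the alpha chain of the fibronectin receptor, and Itga4, which binds VCAM-1 and fibronectin. Itga4 also pairs with Itgb7 to form the gut-homing receptor for MAdCAM-1. Itgav and Itgb3 form the vitronectin receptor. Mature DCs can cross loose three-dimensional networks without integrins, which they need for adhesion to surfaces and vessel walls.

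The beta2 chain, the beta1 chain, and Itga5 were the most abundant integrin transcripts of these DCs. Levels of different genes were compared as CPM (counts scaled to library size) per kilobase of exon, averaged over 18 libraries. On this scale Itgb2 stood at 195.5 ± 93.6 (SD, n = 18), Itgb1 at 154 ± 68.1, and Itga5 at 141 ± 65.8. Each of these is a chain that DCs use to bind ICAMs or fibronectin. Among the partners of Itgb2, Itgax stood at 37.2 ± 22.7, Itgam at 21.0 ± 12.9, and Itgal at 20.6 ± 4.54 CPM per kilobase. Itgb7 followed with 11.4 ± 6.18, Itgav with 6.77 ± 3.29, Itga4 with 4.62 ± 2.56, and Itgb3 with 0.741 ± 0.529. The ranges over the libraries overlapped for each pair of neighbors in this order except for Itga4 and Itgb3, so these ranges do not resolve most of the order. Compared within each library, Itgb2, Itgb1, and Itga5 each stood above all the other members in every library. Itgax stood above Itgam in every library, though barely in some (15.26 against 15.20 in 2.6 mg/ml replicate 3). With the longest coding transcript as length, Itgal (25.9 CPM per kilobase) came before Itgam (22.6), and the other ranks did not change. The values rest on 160 to 39472 counts per library for 9 of the genes and on 11 to 160 counts for Itgb3. The counting of overlapping genes is not stated, and Itgam overlaps on its own strand with the gene Gm49368, which had 0 to 7 counts in a library.

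Of 17 other integrin subunits listed, 11 passed the filter, and Itgb5, a partner of Itgav, was the most abundant of them with 11.8 ± 4.79 CPM per kilobase (SD, n = 18). The alpha chains that make Itgb1 a collagen receptor were scarce. Itga1 had 1.04 ± 0.363 CPM per kilobase, Itga10 had 0 to 29 counts in a library, and neither Itga2 (0 to 6 counts) nor Itga11 (0 to 26 counts) passed the filter. Itga1 did not pass the test between collagen and suspension (18.7 ± 4.65 CPM, n = 12, against 20.8 ± 10.2, n = 6; log2 fold change −0.11 with a standard error of 0.24 and an adjusted p = 0.814 in edgeR).

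**Figure D1:**
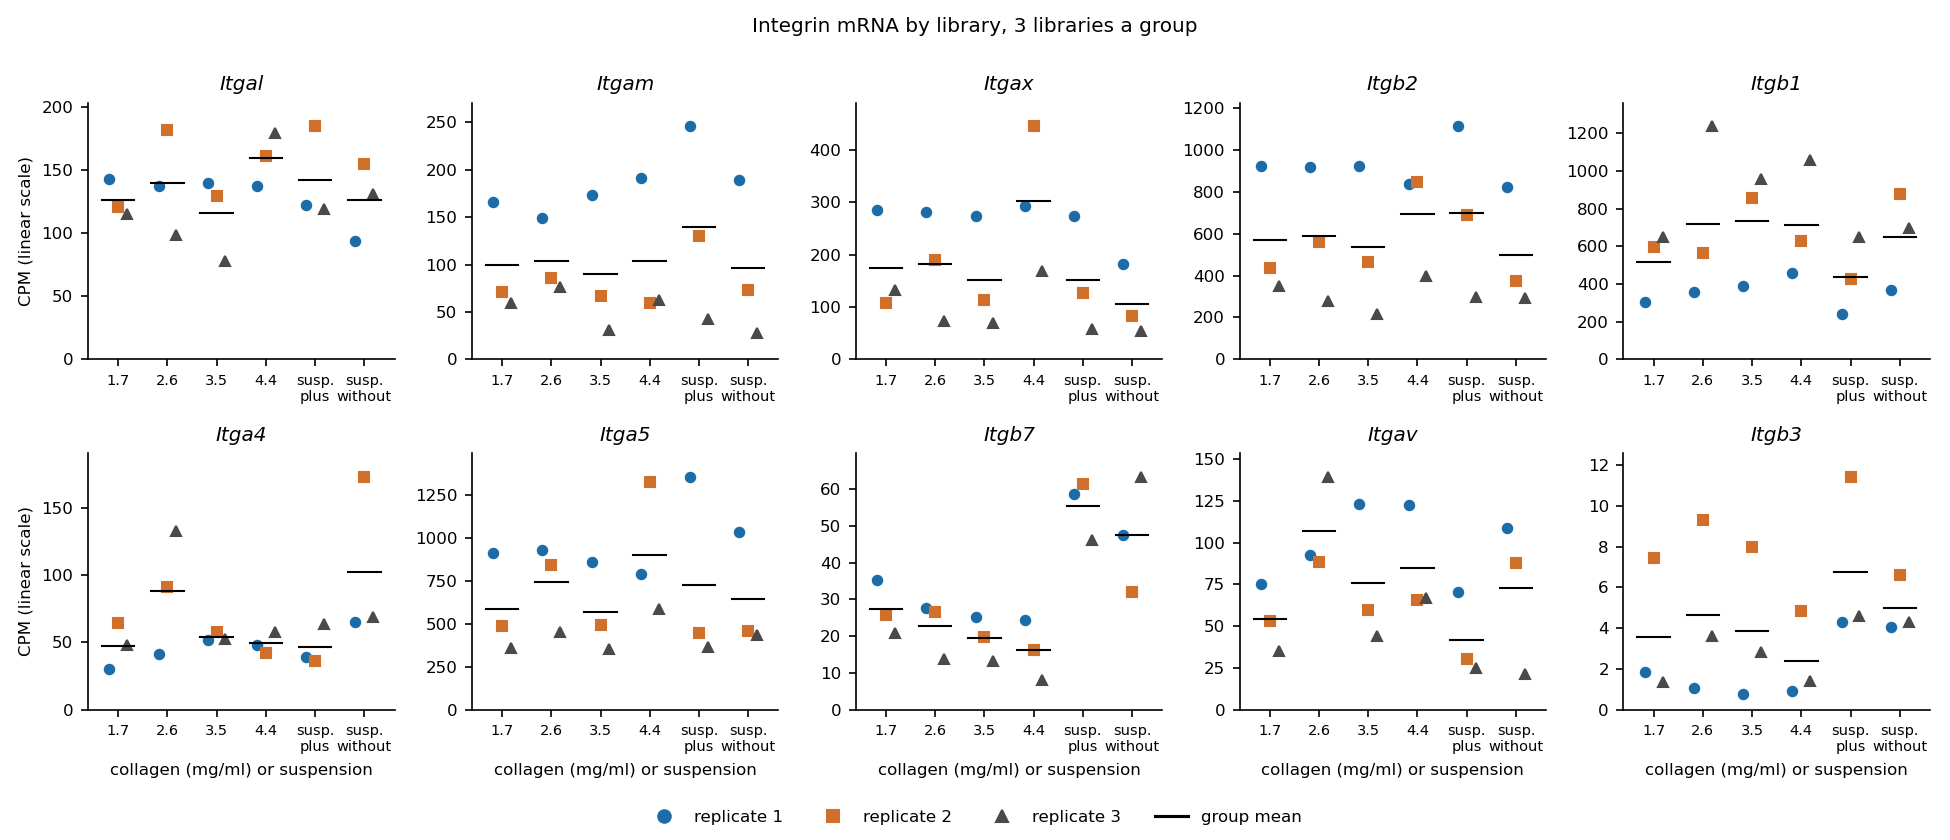
CPM (counts scaled to TMM library size, linear axis from 0) of the 10 integrin genes in every library, by collagen density in mg/ml or suspension group ("susp. plus" and "susp. without" are the suspension groups titled plus and without CCL19). Points are libraries marked by replicate and lines are group means. Itgb7 is the gene whose 12 collagen libraries lie lower than the suspension libraries of the same replicate, whereas Itgb2 and Itgam are highest on average in replicate 1 and lowest in replicate 3, with overlap between replicates.

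Most members differed more between the replicates than between the groups. For 6 of 10 the spread of the replicate means was wider than that of the group means on the log2 scale. The share of all genes with such a spread was not computed, so this count is not read as a trait of the integrin genes. The replicate term passed a false discovery rate (FDR) of 0.1 in 8 of 10, where it passed in 48.3% of all genes tested. Itgb2 averaged 923 CPM in replicate 1, 563 in replicate 2, and 304 in replicate 3 (adjusted p = 1.34e-05 in edgeR for the replicate term). Itgam showed the same order of replicates with 186, 81.0, and 49.9 CPM, and so did Itgax with 265, 178, and 92.7 CPM and Itga5 with 982, 676, and 426 CPM. Thus the beta2 chain, 2 of its alpha chains, and Itga5, the alpha chain of the fibronectin receptor, had their highest mean in the same replicate. Itgb1 had the opposite order with 353, 658, and 875 CPM (adjusted p = 9.63e-05 from the same test). Itgb3 was highest in replicate 2, with 7.95 CPM against 2.16 and 3.02 CPM. Itgal and Itga4 did not pass between the replicates (adjusted p = 0.211 and 0.107). Date, lane, and mouse cannot be told apart within the replicate number. These are orders of the means over the 6 groups, and single groups departed from them. At 4.4 mg/ml, Itgb2, Itgax, and Itga5 were higher in replicate 2 than in replicate 1. For this reason the difference of each member between collagen and suspension is given without and with the replicate number as a block in the fit. Values of genes that are not members are without the block unless stated.

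The study measured transcripts of DCs migrating through collagen of several densities in search of mechanisms that keep the centrosome intact when cells are deformed. In the mean of the 4 collagen groups against the mean of the 2 suspension groups, 1 of the 10 genes passed the FDR of 0.1, Itgb7, which fell. The share among all genes tested was 20.2%. The median log2 fold change of the 10 genes was 0.01, and over all genes tested it was 0.00. With the replicate block 4 of 10 passed, where 34.8% of all genes did. Itgb7 and Itgb3 were lower and Itgax and Itgav were higher in collagen. A share of 4 in 10 is near that of all genes. When all 6 groups were tested together, Itgb7 passed without the block (4.9% of all genes) and Itgax, Itga4, Itgb7, Itgav, and Itgb3 with it (24.3%). With GC and length offsets beside the block, 7 of 10 passed in collagen against suspension, where 37.5% of all genes did. These were the 4 named, Itgb1 and Itga5 (higher), and Itga4 (lower).

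**Figure D2:**
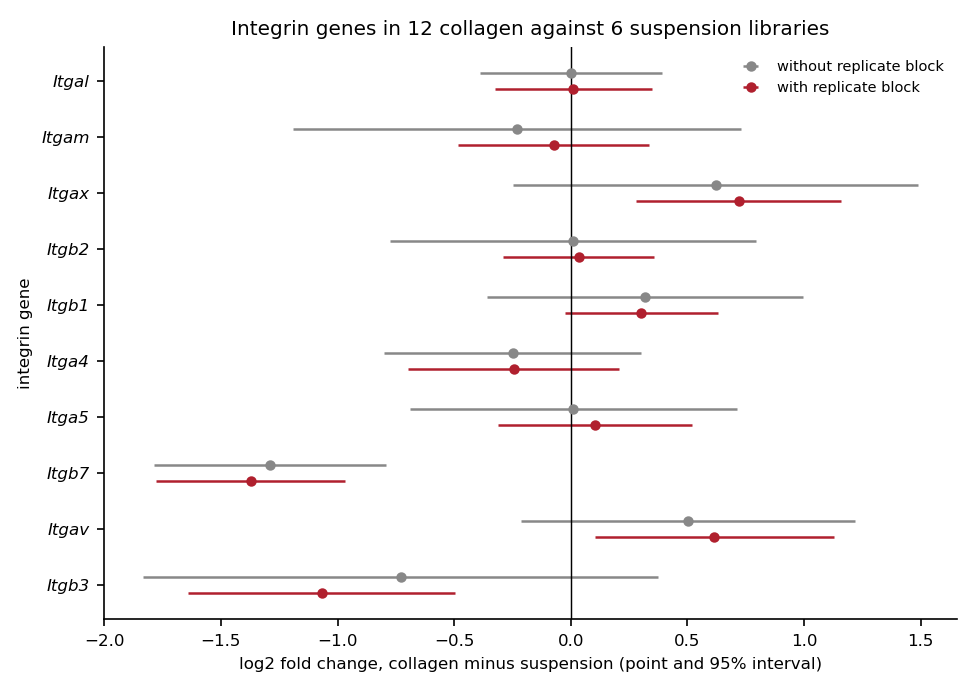
Log2 fold change of each integrin gene in 12 collagen against 6 suspension libraries, with its 95% interval, from the edgeR fit without (gray) and with (red) the replicate block. The interval of Itgb7 lies below 0 in both fits, and with the block those of Itgax and Itgav lie above 0 and that of Itgb3 below 0.

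Itgb7 (ENSMUSG00000001281), the beta chain of the gut-homing integrin, was 2.44-fold lower in collagen than in suspension. It is encoded on chromosome 15 (GRCm38, 102215995 to 102231944, minus strand). In the suspension group titled plus CCL19, replicates 1, 2, and 3 had 58.7, 61.5, and 46.1 CPM. In the group titled without CCL19 they had 47.5, 32.0, and 63.5 CPM. At 1.7 mg/ml the values were 35.3, 25.8, and 20.8 CPM, and in the 2.6 mg/ml gel they were 27.7, 26.5, and 13.9 CPM. They were 25.2, 19.9, and 13.3 CPM at 3.5 mg/ml and 24.4, 16.3, and 7.99 CPM at 4.4 mg/ml. Within each replicate every collagen library lay below both suspension libraries, and over all replicates a single pair of libraries crossed, 1.7 mg/ml replicate 1 and suspension titled without CCL19 replicate 2. Itgb7 is the 1 integrin gene of the 10 with no overlap in 3 of 3 replicates, and 6.62% of all genes tested had none. On the log2 scale the difference was −1.29 ± 0.24 (standard error; adjusted p = 0.00262 in edgeR). The replicate block moved it to −1.37 (adjusted p = 9.7e-05). It passed in all 21 fits that left out a library or a replicate, from −1.49 to −0.98. In bulk samples, fewer cells that carry a transcript and less transcript per cell cannot be told apart.

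The mean of Itgb7 was lower at each step of collagen density, but the slope did not pass the test. From the loosest to the densest gel the group means were 27.3 ± 7.35, 22.7 ± 7.67, 19.5 ± 5.96, and 16.2 ± 8.19 CPM (SD, n = 3 each), against 51.6 ± 12.0 (SD, n = 6) in suspension. Per mg/ml of collagen, log2 CPM changed by −0.27 ± 0.14 (standard error; adjusted p = 0.736 in edgeR), or by −0.29 with the block (adjusted p = 0.25). Neighboring densities overlapped. Against suspension, the log2 fold change at 1.7 mg/ml was −0.91 and missed the threshold (adjusted p = 0.54). It was −1.18 in the 2.6 mg/ml gel (adjusted p = 0.0823), −1.40 in the 3.5 mg/ml gel (adjusted p = 0.0644), and −1.66 in the 4.4 mg/ml gel (adjusted p = 0.0115, all in edgeR). Itgb7 was the single member to pass in these 3 gels. None of the 10 passed at 1.7 mg/ml, where 1 had an unadjusted p under 0.05 and DESeq2 called 0. Of all 13844 genes, 1113 had an unadjusted p under 0.05 in that gel and DESeq2 called 141. The shares of all genes tested that passed in edgeR were, in the order of density, 0.0361%, 7.87%, 4.9%, and 14.8%. The calls at 2.6 and 3.5 mg/ml held in 9 and 11 of the 21 fits with a library or replicate left out, where the adjusted p reached 0.404 and 0.449. The call at 4.4 mg/ml held in 20 of 21 and was lost without replicate 2. The call for any difference among the groups (adjusted p = 0.0547) was lost without either library titled plus CCL19 of replicates 1 and 2, without the library titled without CCL19 of replicate 1, and without any 1 of the replicates. With the block, Itgb7 passed in the same 3 gels, and the call at 2.6 mg/ml was lost without replicate 3 of that gel (adjusted p = 0.1001) and without replicate 3 of all groups (adjusted p = 0.108).

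Transcripts of eosinophils, like Itgb7, were lower in collagen than in suspension. Of 8 eosinophil markers, 7 were tested and all 7 were lower in collagen, among them Ear1, Ccr3, and Ear6, an eosinophil ribonuclease, the eotaxin receptor, and a further ribonuclease. Their near-identical family copies make counts of the Ear genes uncertain. The summed level of the 8 markers was 14 to 168 CPM (median 43) in the 12 collagen libraries and 117 to 1339 CPM (median 342) in the 6 suspension libraries, mostly from Prg2, a granule protein, with 45.7 ± 36.5 CPM in collagen and 432 CPM on average in suspension. The group titled plus CCL19 had 147 to 1339 CPM and the group titled without CCL19 had 117 to 500 CPM. By rising density the gels averaged 57.2 ± 9.87, 49.1 ± 41.0, 59.5 ± 43.2, and 77.6 ± 78.3 CPM (SD, n = 3 each). In replicates 1 and 3 the eosinophil sum was lower at 4.4 mg/ml (39.7 and 25.6 CPM) than at 1.7 mg/ml (59.6 and 46.3 CPM). In replicate 2 it was higher (168 against 65.6 CPM). Of 11 neutrophil markers Retnlg, Ly6g, and Cxcr2 were lower in collagen, and the summed level was 1058 to 5184 CPM against 642 to 9795 CPM. The part of other cells in the level of Itgb7 was not tested. Within replicate 1 the summed eosinophil level was 35.9 to 59.6 CPM in collagen and 117 to 147 CPM in suspension, while Itgb7 was 24.4 to 35.3 against 47.5 to 58.7 CPM. In replicate 2 the eosinophil sum was 65.6 to 168 CPM in collagen, and the suspension libraries titled without and plus CCL19 had 185 and 1339 CPM beside 32.0 and 61.5 CPM of Itgb7. In replicate 3 it was 14 to 46.3 CPM in collagen, and the same suspension groups had 500 and 936 CPM beside 63.5 and 46.1 CPM of Itgb7. The library with the higher eosinophil sum had the higher Itgb7 in replicates 1 and 2 and the lower in replicate 3.

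**Figure D3:**
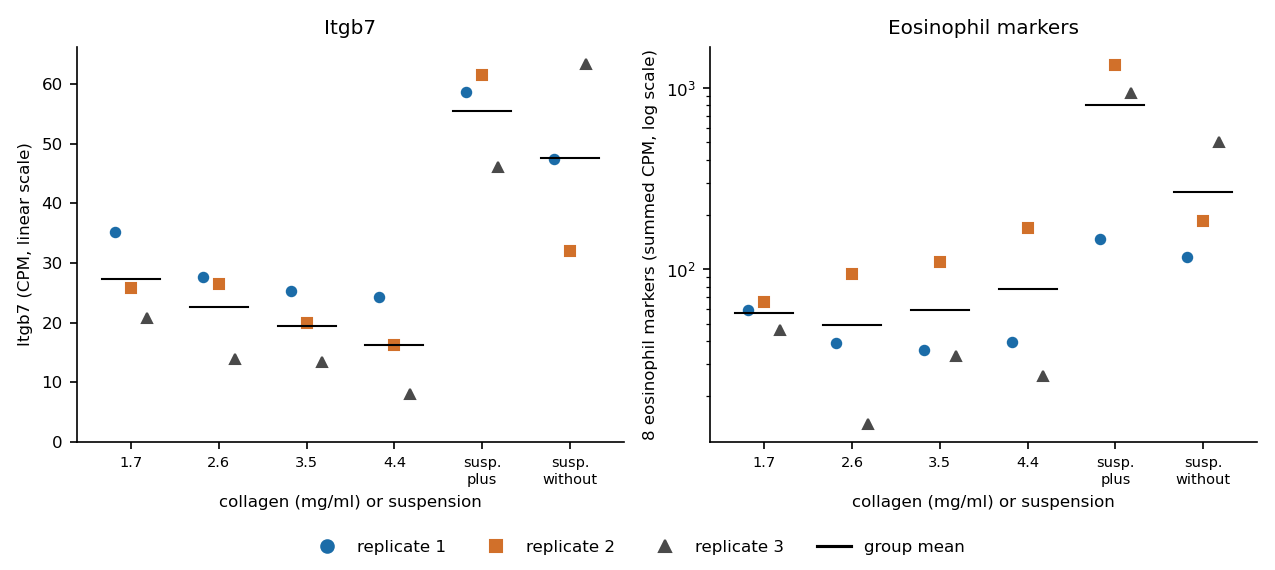
CPM of Itgb7 (left, linear axis from 0) and summed CPM of 8 eosinophil markers (right, log axis) in each library by collagen density in mg/ml or suspension group. Points are libraries marked by replicate and lines are group means. Both are lower in the collagen libraries than in the suspension libraries of the same replicate, and their order among the suspension libraries differs.

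The genes whose replicate-centered log2 CPM followed that of Itgb7 most closely over the 18 libraries were Ap3d1 (Pearson r = 0.969), a subunit of the AP-3 sorting complex, and Slc24a3 (r = 0.96), a sodium, potassium, and calcium exchanger. Both were lower in collagen. Ap3d1 had 117 ± 15.8 CPM in collagen (SD, n = 12) and 164 ± 23.0 in suspension (SD, n = 6), and Slc24a3 had 0.559 ± 0.250 and 4.0 ± 2.57 CPM. The libraries share batches and the difference between collagen and suspension, so these values are a description.

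Itgb7, which was lower, and Itgax, which was higher with the block, are shown with the 250 bases before and 20 bases after the RefSeq start on GRCm38.p6, 5′ to 3′ on the strand of the gene. Capitals mark the letters GAGGAA on either strand (TTCCTC when read on the other), the core bound by the myeloid factor PU.1. Of the 10 genes, 7 had an entry in the promoter table and 5 of them held these letters within 250 bases before to 50 after the start, as did 28.3% of 32851 promoters of that length. In Itgb7 the match begins at position 3 after the start, and Itgax has no match in this window.
Itgb7, chr15:102231916-102232185, minus strand: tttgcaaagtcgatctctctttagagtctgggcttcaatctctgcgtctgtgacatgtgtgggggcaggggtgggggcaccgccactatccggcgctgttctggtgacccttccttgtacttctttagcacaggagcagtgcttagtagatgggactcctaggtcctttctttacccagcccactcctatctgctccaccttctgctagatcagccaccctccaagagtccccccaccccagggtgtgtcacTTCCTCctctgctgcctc
Itgax, chr7:128129300-128129569, plus strand: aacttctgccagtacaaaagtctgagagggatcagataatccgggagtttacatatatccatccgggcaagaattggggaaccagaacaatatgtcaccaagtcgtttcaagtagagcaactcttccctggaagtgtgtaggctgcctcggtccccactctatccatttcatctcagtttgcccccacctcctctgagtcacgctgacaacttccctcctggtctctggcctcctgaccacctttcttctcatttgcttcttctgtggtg

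Of the leukocyte-specific beta2 family, Itgax, the CD11c chain by which DCs are commonly recognized, differed between collagen and suspension with the replicate block, and Itgb2, Itgam, and Itgal did not. The genes of Itgal, Itgam, and Itgax lie on the plus strand of chromosome 7 (Itgax from 128129547 to 128150657). Itgax had 273, 126, and 58.5 CPM in replicates 1, 2, and 3 of suspension titled plus CCL19 and 182, 82.1, and 54.5 CPM in suspension titled without CCL19. At 4.4 mg/ml it had 293, 446, and 168 CPM. These exceeded both suspension libraries in every replicate. The values were 285, 108, and 132 CPM in the 1.7 mg/ml gel, 283, 190, and 73.3 CPM in the 2.6 mg/ml gel, and 274, 113, and 69.2 CPM in the 3.5 mg/ml gel. In replicate 2 the 1.7 and 3.5 mg/ml libraries lay between the suspension libraries, whereas in replicates 1 and 3 all collagen libraries lay above suspension. Without the block the log2 fold change in collagen was 0.62 ± 0.41 (standard error; adjusted p = 0.351 in edgeR). With it the value was 0.72 ± 0.21 (adjusted p = 0.0168), a 1.65-fold higher level. This call was lost without replicate 3 (adjusted p = 0.105). At 4.4 mg/ml the log2 fold change was 1.25 (adjusted p = 0.166) without the block and 1.47 (adjusted p = 0.00126), or 2.76-fold, with it, which passed in all 21 fits with libraries left out (1.01 to 1.96). Replicate 2 at 4.4 mg/ml was the highest library. In this library the 20% of genes with the lowest GC content were counted 0.9 lower on the log2 scale than the 20% with the highest, relative to the mean of all libraries. With GC and length offsets and no block Itgax also passed at 4.4 mg/ml (1.47, adjusted p = 0.0788). The slope over the densities did not pass (0.25 per mg/ml with the block, adjusted p = 0.351).

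Itgb2 had 215, 515, and 924 CPM as its lowest, median, and highest level in collagen and 291, 532, and 1114 CPM in suspension. The groups overlapped over nearly their whole range. The log2 fold change was 0.01 without the block, with a 95% interval from −0.78 to 0.79, and 0.03 with it, from −0.29 to 0.36. For Itgam, the CD11b chain, the values were 30.7, 73.9, and 191 CPM in collagen and 28.2, 102, and 246 CPM in suspension (log2 fold change −0.23 without the block, interval −1.19 to 0.73, and −0.07 with it, interval −0.48 to 0.34). For Itgal, the LFA-1 chain, they were 78.0, 138, and 182 CPM against 93.7, 127, and 185 CPM (0.00 without the block, interval −0.39 to 0.39, and 0.01 with it, interval −0.32 to 0.35). None of these genes was called in collagen against suspension in either fit. At 4.4 mg/ml, Itgb2 (0.41, adjusted p = 0.088 in edgeR) and Itgal (0.56, adjusted p = 0.0586) were called higher with GC and length offsets beside the block.

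The balance of the beta2 alpha chains was read as the share of each in their summed CPM per kilobase. Itgax made up 50.5 to 53.8% in collagen and 42.2 to 45.7% in suspension in replicate 1, 40.8 to 71.9% against 30.9 to 32.7% in replicate 2, and 33.5 to 48.4% against 30.7 to 31.4% in replicate 3. Its share was higher in each collagen library than in both suspension libraries of the same replicate. The share of Itgam was lower in collagen in replicates 1 (27.1 to 31.7% against 39.4 to 41.9%) and 2 (9.07 to 25.8% against 26.4 to 32.2%) and overlapped in replicate 3 (16.6 to 33.4% against 15.2 to 21.9%). Itgal went both ways, with 17.4 to 19.2% in collagen against 14.9 to 15.9% in suspension in replicate 1 and 30.9 to 36.7% against 46.7 to 54.2% in replicate 3. The shares depend on each other and were not tested. The summed alpha chains stood at 0.439 ± 0.0668 of the level of Itgb2 per kilobase in collagen (SD, n = 12) and at 0.378 ± 0.0442 in suspension (SD, n = 6).

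**Figure D4:**
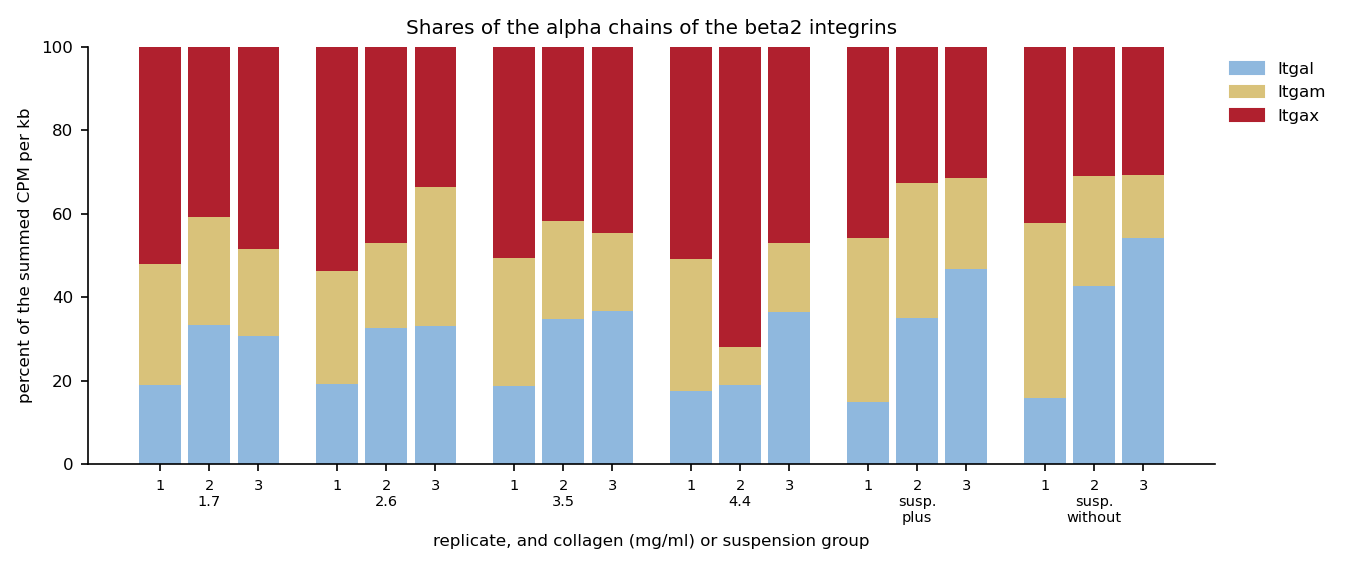
Shares of Itgal, Itgam, and Itgax in their summed CPM per kilobase of exon, in percent from 0 to 100, with a bar for each library by replicate and by collagen density in mg/ml or suspension group. The share of Itgax reaches 71.9% in replicate 2 at 4.4 mg/ml, and in suspension it lies between 30.7 and 45.7%.

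Most macrophage markers, like Itgax, were called higher in collagen with the replicate block. Of 10 listed, Marco passed without the block (20.2% of all genes). With it 7 passed (34.8%), all higher, among them the scavenger receptor Marco, Adgre1 (F4/80), and Fcgr1 (CD64). By rising density, 0, 2, 0, and 7 passed with the block. Mean CPM was lower in collagen for Csf1r (461 against 508) and Mertk (3.08 against 3.56). The summed level of the 10 markers was 605 to 3154 CPM (median 1493) in collagen and 463 to 2694 CPM (median 941) in suspension. The ranges overlapped. Of 14 markers of mature DCs, Cd80 was higher and Flt3 lower in collagen, in both fits, and the summed level was 41852 to 109060 CPM against 30443 to 98033 CPM. The part of macrophages in the level of Itgax was not tested.

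Itgav and Itgb3, the chains of the vitronectin receptor, moved apart with the replicate block. Itgb3, the platelet and osteoclast beta chain, was 2.10-fold lower in collagen. In suspension titled plus CCL19, replicates 1, 2, and 3 had 4.29, 11.4, and 4.61 CPM, and in suspension titled without CCL19 they had 4.06, 6.61, and 4.29 CPM. Itgb3 had 1.85, 7.45, and 1.37 CPM in the 1.7 mg/ml gel and 1.08, 9.33, and 3.61 CPM in the 2.6 mg/ml gel. It had 0.754, 8.01, and 2.83 CPM in the 3.5 mg/ml gel and 0.902, 4.87, and 1.40 CPM in the 4.4 mg/ml gel. All collagen libraries of replicates 1 and 3 lay below suspension, and those of replicate 2 overlapped with it except at 4.4 mg/ml. Without the block the log2 fold change was −0.73 (adjusted p = 0.396 in edgeR). With it the value was −1.07 ± 0.27 (standard error; adjusted p = 0.008), a call lost without replicate 1 (adjusted p = 0.167). At 4.4 mg/ml it was −1.61 with the block (adjusted p = 0.0113) and held in all 21 fits with libraries left out. Counts of Itgb3 were low, 11 to 160 per library, and 3 counts correspond to 0.107 to 0.23 CPM. Markers of platelets did not move in 1 direction. Of 7 megakaryocyte and platelet markers, 4 were tested, Pf4 and Ppbp were higher and Itga2b lower in collagen with the block, and their summed level was 24.9 to 256 CPM in collagen and 16.0 to 185 CPM in suspension.

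Itgav, the alpha chain that binds vitronectin and activates latent TGF-β, was 1.53-fold higher in collagen with the block. Replicates 1, 2, and 3 had 70.3, 30.3, and 25 CPM in suspension titled plus CCL19 and 109, 87.6, and 21.5 CPM in suspension titled without CCL19. In the gels they had 75.1, 53.3, and 35.1 CPM (1.7 mg/ml), 92.3, 88.5, and 140 CPM (2.6 mg/ml), 123, 59.8, and 43.9 CPM (3.5 mg/ml), and 123, 65.4, and 66.8 CPM (4.4 mg/ml). The groups overlapped in replicates 1 and 2 and were separate in replicate 3. Without the block the log2 fold change was 0.50 (adjusted p = 0.359 in edgeR). With it the value was 0.62 ± 0.24 (standard error; adjusted p = 0.0705), a call lost in 6 of 21 fits, namely without 1.7 mg/ml replicate 2, without 3.5 mg/ml replicate 1, without suspension titled plus CCL19 replicate 2 or 3, without suspension titled without CCL19 replicate 3, and without replicate 3 (adjusted p up to 0.343). At 2.6 mg/ml the log2 fold change was 1.23 with the block (adjusted p = 0.0204) and the call was lost without replicate 3 of that gel (0.59, adjusted p = 0.27) and without replicate 3 of all groups (0.44, adjusted p = 0.406). The library of replicate 3 at 2.6 mg/ml, the highest of Itgav, counted the genes of lowest GC content 1.29 higher on the log2 scale than those of highest GC content, relative to the mean of all libraries, and the longest 20% of genes 0.766 higher than the shortest 20%. Itgav has a GC content of 43.6% and Itga4 of 41.1%, and both are long, with 10744 and 13978 bases of exon. With GC and length offsets beside the block, Itgav at 2.6 mg/ml stood at 0.85 (adjusted p = 0.00805).

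**Figure D5:**
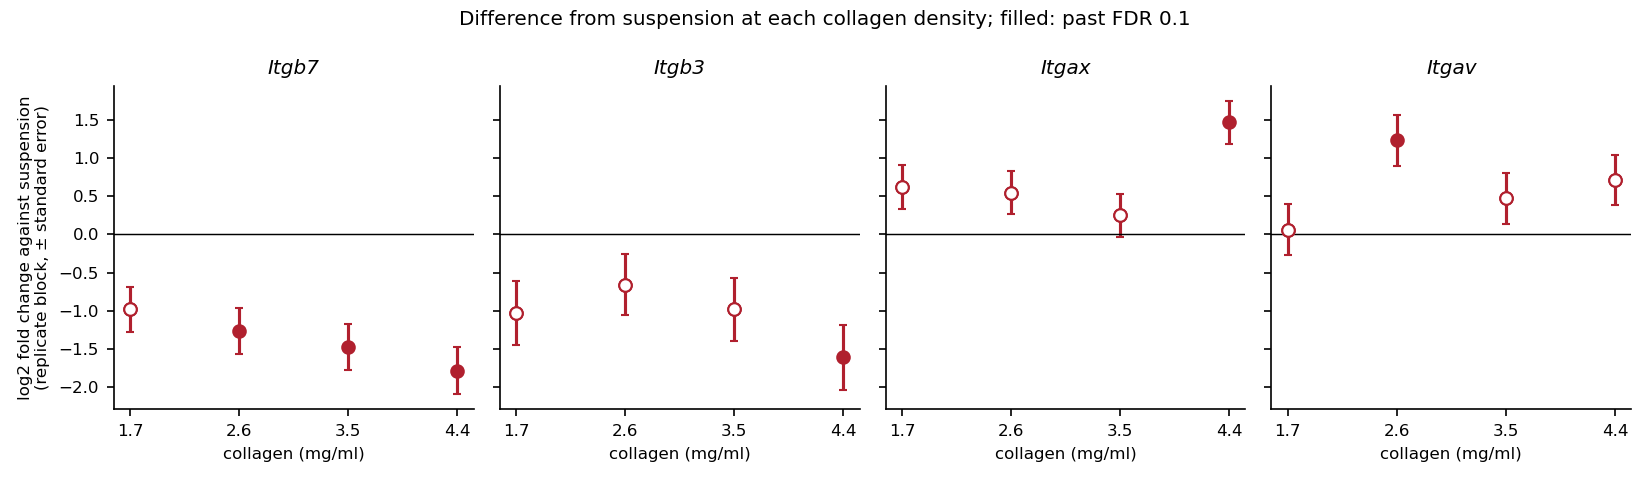
Log2 fold change against suspension at each collagen density (mg/ml) for the 4 integrin genes called in collagen with the replicate block, with standard errors. Filled points pass an FDR of 0.1. Itgb7 passes from 2.6 mg/ml on, Itgb3 and Itgax pass at 4.4 mg/ml, and Itgav passes at 2.6 mg/ml.

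Counted by density with the replicate block, none of the 10 genes passed at 1.7 mg/ml in edgeR, where 2.91% of all genes did (3 members had an unadjusted p under 0.05, and DESeq2 with the block called 1), and Itgb7 and Itgav passed at 2.6 mg/ml (21.6% of all genes). Itgb7 alone of the 10 passed at 3.5 mg/ml (18.4%), and Itgax, Itgb7, and Itgb3 passed at 4.4 mg/ml (31.9%). With GC and length offsets beside the block, 8 of 10 passed at 4.4 mg/ml, where 35.4% of all genes did, all except Itgam and Itga4. No member passed in the slope over the 4 collagen densities, either without the block (0.00722% of all genes) or with it (1.45%) in edgeR, nor in DESeq2 without or with the block, and 0 and 2 members had an unadjusted p under 0.05 in the edgeR fits. The largest slope with the block was that of Itgb7, and those of the others lay between −0.23 and 0.25 per mg/ml. The densities share the suspension libraries, so their values are not independent.

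The beta1 chain Itgb1 and the alpha chains Itga5 and Itga4 did not pass between collagen and suspension in either of the edgeR fits without offsets. Itgb1 had 303, 610, and 1238 CPM as its lowest, median, and highest level in collagen and 241, 538, and 878 CPM in suspension. Its log2 fold change was 0.32 without the block (adjusted p = 0.566 in edgeR) and 0.30 (adjusted p = 0.163, 95% interval −0.03 to 0.63) with it. Itga5, the fibronectin receptor chain, had 351, 688, and 1328 CPM in collagen and 367, 451, and 1357 CPM in suspension. In replicate 1 its 4 collagen libraries (788 to 931 CPM) lay below suspension (1037 to 1357 CPM), and in replicate 2 they (486 to 1328 CPM) lay above it (445 to 457 CPM). Its log2 fold change was 0.01 without the block (interval −0.69 to 0.71) and 0.10 with it (interval −0.31 to 0.52). Itga5 per Itgb1 stood at 0.303 to 4.65 per kilobase across the libraries, so the excess of 1 chain over the other depended on the library.

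Itga4, the partner of both Itgb1 and Itgb7, had 30.1, 52.0, and 133 CPM as its lowest, median, and highest level in collagen and 36.1, 64.2, and 173 CPM in suspension (log2 fold change −0.25 ± 0.26, standard error, with adjusted p = 0.582 in edgeR, and −0.25 with the block, interval −0.70 to 0.21). With GC and length offsets beside the block it was called lower (−0.32, adjusted p = 0.0626 in edgeR). With the block alone it passed for any difference among the groups (adjusted p = 0.0832) but in no single density, and this call held in 6 of 21 fits with libraries left out. The like calls of Itgb3, Itgav, Itgax, and Itgb7 held in 11, 14, 19, and 21 of them. Its highest libraries were suspension titled without CCL19 replicate 2 with 173 CPM and 2.6 mg/ml replicate 3 with 133 CPM. In the former the longest 20% of genes were counted 1.03 higher on the log2 scale than the shortest 20%, the widest such gap of the 18 libraries. The part of GC content and length in these levels was not tested apart from the offsets.

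Between the suspension groups no member passed, as no gene did (0% without and 0% with the block), and 855 of 13844 genes had an unadjusted p under 0.05 without the block and 1960 with it. Of the 10 genes, 1 had an unadjusted p under 0.05 without the block and 2 with it. DESeq2 called 0 genes without the block and 194 with it, none of them a member. The widest difference was in Itga4, with 46.2 ± 15.0 CPM in the group titled plus CCL19 and 102 ± 61.2 in the group titled without CCL19 (SD, n = 3 each; adjusted p = 0.761 in edgeR).

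Of the other integrin subunits 11 were tested, and 1 rose and 2 fell in collagen, where 20.2% of all genes passed. Itgb8, a TGF-β-activating beta chain, rose, and Itga6 and Itga3, laminin-binding alpha chains, fell. Itgb8 had 12.1 ± 7.37 CPM in collagen (SD, n = 12) and 5.48 ± 4.61 in suspension (SD, n = 6; log2 fold change 1.22, adjusted p = 0.0331 in edgeR). Itga6 had 4.71 ± 1.17 against 8.79 ± 2.92 CPM (−0.91, adjusted p = 0.0166), and Itga3 had 1.56 ± 0.585 against 2.93 ± 1.48 CPM (−0.91, adjusted p = 0.0767). The ranges overlapped for all 3 genes. Itgb8 is long and low in GC content, as Itgav and Itga4 are, with 11060 bases of exon and 40.4% GC. Itga6 has 48.9% GC and Itga3 57.9%. The part of GC content and length in these 3 differences was not tested. With the block Itgb2l and Itga2b were lower as well. Itgae, the partner of Itgb7 in the E-cadherin receptor, had 1.2 ± 0.711 against 1.53 ± 0.973 CPM and did not pass.

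Among 21 genes listed for the control of integrin activation from inside the cell, whether toward it or against it, 19 were tested. Of these, 2 rose and 5 fell in collagen. Rap1b, a small GTPase that turns integrins on, rose from 209 ± 65.6 CPM in suspension to 447 ± 146 in collagen (log2 fold change 1.12, adjusted p = 0.00226 in edgeR). Tln1 (talin) and Fermt3 (kindlin-3), which bind the beta tails, fell. Tln1 had 616 ± 117 against 940 ± 133 CPM (−0.62, adjusted p = 0.0187), and Fermt3 had 289 ± 64.4 against 430 ± 104 CPM (−0.57, adjusted p = 0.046). With the block 4 rose and 7 fell. Rap1b has a GC content of 39.9%, Tln1 of 57.0%, and Fermt3 of 57.5%. The part of GC content in their differences was not tested. The direction was thus not shared within the list, and its median log2 fold change was −0.11, against 0.00 over all genes tested.

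Of 22 ligands of integrins listed, 16 were in the matrix and 14 tested. Icam5 and Cdh1 fell, and none rose. Cdh1 (E-cadherin), the ligand of the Itgae and Itgb7 pair, had 11.4 ± 2.96 CPM in collagen and 16.5 ± 2.37 in suspension (log2 fold change −0.55, adjusted p = 0.043 in edgeR). Icam5, an ICAM of neurons, had 2.14 ± 0.638 against 3.76 ± 1.08 CPM (−0.81, adjusted p = 0.0382). With the block 2 rose and 2 fell. Among 21 genes of integrin signaling, all tested, 3 rose and 2 fell in both fits. The Src-family kinase Fgr fell from 40.6 ± 32.1 to 15.9 ± 12.0 CPM (−1.44, adjusted p = 0.0149), and Ptk2b (Pyk2) fell from 254 ± 40.9 to 170 ± 38.3 CPM (−0.58, adjusted p = 0.0234). The adaptor Crkl rose from 65.9 ± 16.0 to 103 ± 29.4 CPM (0.63, adjusted p = 0.0174). Of 17 tetraspanins and genes of integrin recycling, 16 were tested, and 1, Arf6, a GTPase of endosomal recycling, rose from 49.7 ± 19.6 to 84.1 ± 24.7 CPM (0.74, adjusted p = 0.0543). With the block 5 rose and 1 fell. In each of these lists the count is read against 20.2% of all genes tested, or 34.8% with the block. Values of the genes named from the lists are without GC and length offsets, so the part of GC content and length was not tested.

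Total counts ranged from 13062944 to 28059839 per library, and no 2 of the libraries were identical (153 pairs). Of 14 markers of mature DCs, Ccl22, Cd74, Ccr7, and Fscn1 were abundant in every library. Zbtb46 and Flt3 of the same list averaged 48.4 and 8.67 CPM, below the macrophage markers Csf1r (477 CPM) and Adgre1 (415 CPM). The sum of 6 T cell markers was at most 3.71 CPM, with Cd3e, Cd3g, and Cd4 at 0 in some libraries. The sums of 6 B cell markers were 5.93 to 38.0 CPM in collagen and 4.64 to 55.8 CPM in suspension, those of 8 basophil and mast cell markers 86.5 to 476 and 107 to 396 CPM, and those of 5 stromal cell markers 1.15 to 115 and 0.747 to 7.65 CPM. Of all marker lists, that of mature DCs had the highest sum in every library, with Ccl22 and Cd74 at 27240 and 20310 CPM on average. Such sums depend on the genes listed and do not give the share of a cell type.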

How the data were processed

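The authors aligned single-end reads of stranded mRNA libraries to GRCm38 with STAR 2.7.0f and deposited raw counts for each Ensembl gene. The methods name RSEM for TPM values, and whether it also made the deposited counts, and how shared reads were treated, is not given in the sources used here. Here the counts were tested in R 4.3.3 with edgeR 4.0.16 (filterByExpr, TMM, quasi-likelihood F-test, Benjamini-Hochberg over 13844 genes, FDR 0.1) in a single fit of 6 group means over 18 libraries. CPM used TMM-scaled library sizes, and log2 CPM a prior count of 2. Standard errors came from the F statistic, and intervals are at 95%. Symbols and exon lengths (29866 of 29875 genes) came from GENCODE vM21. Alternatives were a replicate block, DESeq2 1.42.0, its size factors, no filter, FDR 0.05, loess offsets for GC content and length (span 0.5), fewer libraries, and omission of each library or replicate. Omission with the block and the test of replicates were added after seeing the data. Replicate numbers pair the libraries because same-numbered libraries share a date and a lane (mean r of their deviations from the group means 0.434 over 45 pairs, 39 above 0.1). The fit without the block was tested on simulated data. These held no replicate effect, so how the fits behave under such an effect was not tested. The members, gene lists, and tests were chosen with earlier results of these data known. Named genes were the members, other integrin subunits, up to 3 genes of each list with the smallest p, and the 2 genes most like a member called for any difference.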

Additional observations from a re-analysis of the deposited data

Results flagged for a closer look

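Among the 6 suspension libraries, the 10 members and the total counts (11 items) were searched for a single library apart from the rest by Dixon's test, and 2 items had one. For 1 item, chance gives about 1 in 20 where all libraries are drawn alike. These come from 2 groups and 3 replicates that differ, so that rate is nominal. Itga4 in suspension titled without CCL19 replicate 2, at 173 CPM, lay apart from the other suspension libraries (36.1 to 69.1 CPM), with a gap over range of 0.759. This is also the library with the widest gap between long and short genes. Itgb3 in suspension titled plus CCL19 replicate 2, at 11.4 CPM, lay apart from 4.06 to 6.61 CPM, with a gap over range of 0.655. Itgb3 was highest in replicate 2 in every group.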

How the results depend on the processing

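The difference of Itgb7 in collagen kept its direction and its call under each alternative, from −1.37 to −1.12, and from −1.49 to −0.98 with libraries left out. The number of members called for any difference (1) was 5 with the replicate block and 6 with DESeq2 with the replicate block. It was 4 with GC and length offsets and the block, 2 with no filter, 0 at FDR 0.05, and 0 to 1 with libraries left out. Of all 13844 genes tested, DESeq2 with the block called 5298 for any difference, and offsets with the block called 3799. With no filter 1993 of 29875 were called. In collagen against suspension (1) the number of members was 4 with the replicate block, 5 with DESeq2 and the block, and 7 with offsets and the block. Of all genes, DESeq2 and the block called 5381 there, and offsets and the block 5194. In the 4 gels against suspension, by rising density (0, 1, 1, and 1) the number of members was 0, 2, 1, and 3 with the replicate block. It was 1, 2, 3, and 6 with DESeq2 and the block, and 1, 4, 1, and 8 with offsets and the block. At 4.4 mg/ml it was 2 with DESeq2, 2 with no filter, and 2 with offsets, and 0 to 3 with libraries left out (0 without replicate 2). It was 0 at 2.6 and 3.5 mg/ml at FDR 0.05, 0 at 2.6 mg/ml with only the groups compared (Itgb7 −1.15, adjusted p = 0.13 from edgeR), and 0 to 1 at both with libraries left out. With suspension as 0 mg/ml, 1 member (Itgb7, −0.39 per mg/ml) passed in the slope, which then also holds the difference from suspension. In that slope 3024 of 13844 genes passed. Over all genes in the gels by rising density, DESeq2 and the block called 1095, 3665, 3200, and 5023 genes. Offsets and the block called 718, 3514, 2546, and 4904. At 4.4 mg/ml without the block, DESeq2 called 2808 genes, offsets 2423, and no filter 2384 of 29875.

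Members that passed in neither setting changed sign as follows. With no filter, Itgal was −0.0264, Itgb2 −0.0315, and Itga5 −0.0311 in collagen against suspension, and the slope of Itgam was −0.0104. Itgam was 0.0429 in collagen with offsets and the block. Its slope was −0.0531 with the block, −0.0409 with DESeq2 and the block, −0.0221 with offsets and the block, and −0.0612 with suspension as 0 mg/ml. With libraries left out, differences in collagen ranged from −0.13 to 0.14 (Itgal), −0.46 to 0.25 (Itgam), −0.18 to 0.32 (Itgb2), −0.37 to 0.0621 (Itga4), and −0.26 to 0.48 (Itga5), and slopes from −0.26 to 0.20 (Itgam), −0.0247 to 0.26 (Itgb2), −0.16 to 0.0661 (Itga4), and −0.57 to 0.15 (Itgb3). The causes were not tested. Depth limits Itgb3 most, with 11 to 160 counts per library.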
